A study of Mus musculus with 8 samples.

Results

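Cluster 8 is a small group of 88 thymocytes among 10237 single-cell expression profiles. Its members are all cells that carry the number 8 in the coarse cluster column of the authors' deposited cell table, whose clustering method is not given in the sources used here. The WT DN3 library holds 33 of them, the KI DN3 library 14, the WT DN4 library 25 and the KI DN4 library 16. The cluster was compared with clusters 0 and 1 (4744 cells, nearly all DN3), with cluster 2 (1573 cells, nearly all DN4) and, for its DN4 cells, also with cluster 5 (652 cells).

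The study sorted double-negative (CD4- CD8-) thymocytes from wild-type C57BL/6J mice (WT) and from GSK3β knock-in mice (KI), whose allele removes the inhibitory phosphorylation site Ser389 of this kinase by a change to alanine. CD44- CD25+ cells were sorted as DN3 and CD44- CD25- cells as DN4, after cells bearing CD4, CD8, CD11b, immunoglobulin kappa or MHC class II had been removed with magnetic beads. Each of the 4 groups gave 1 library of 5′ gene expression and 1 library of T cell receptor sequence. The age, sex and number of mice behind a library are not given in the labels, so no value below carries a spread between mice.

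DN3 thymocytes keep CD25 (Il2ra), depend on Notch signals and use the RAG recombinase to join V, D and J segments of the T cell receptor β locus. A productive β chain pairs with pre-Tα (Ptcra), and the pre-T cell receptor then drives loss of CD25, growth and passage through DN4. Some double-negative cells instead rearrange the γ and δ loci and become γδ T cells, a part of which depends on the transcription factor SOX13. Spi1 (PU.1) belongs to the earliest thymic progenitors and is shut off at commitment to the T lineage.

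The working name of the cluster, Sox13-high and Il2ra-high, did not hold at the level of its cells. Il2ra was found in 37 of the 47 DN3 cells and in 1 of the 41 DN4 cells. Sox13 was found in 2 of the DN3 cells and in 8 of the DN4 cells. A single cell of the 88 held a UMI (a counted RNA molecule) of both genes. The 2 readings therefore come from different cells of the cluster, and no cell type name is given to it here.

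The 4 expression libraries hold between 16411164 and 30402236 UMIs, and their cells between 717 and 46885. Cluster 8 holds 155279 UMIs in all, from 19276 in KI DN4 to 68971 in WT DN3. Of all barcodes 54 occur in more than 1 library, among them those of 2 cells of cluster 8. Levels are given as CPM, the UMIs of a gene scaled to the same total of UMIs, for the pooled cells of a library or group, with exact 95% intervals that cover counting error only. Where 4 values follow each other "in library order", they stand for WT DN3, KI DN3, then WT DN4, KI DN4. With 1 library per group no test between groups was possible, and since clusters were made from the same genes, a cluster against another is a description.

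What the 88 cells of both stages shared was a composition of RNA that set them apart from nearly all other cells. UMIs of ribosomal protein genes, which make up the protein part of the ribosome, took medians of 5.56%, 6.63%, 3.98% and 3.50% of a cell's UMIs in library order. The medians of clusters 0 and 1 were 26.5% (WT DN3) and 27.5% (KI DN3), and those of cluster 2 were 24.7% (WT DN4) and 25.7% (KI DN4). Of the 88 cells, 84 were under 10% ribosomal protein UMIs, against 30 of the 10149 cells outside the cluster.

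Mitochondrially encoded UMIs went the other way, with medians of 6.56%, 6.43%, 5.40% and 4.96% in library order. The medians were 2.78% and 3.08% in clusters 0 and 1 of the DN3 libraries, and 1.59% and 1.83% in cluster 2 of the DN4 libraries. In cluster 8, 76 cells exceeded 4%, against 5.28% of all other cells, and 4 cells were under 1.5%. No cell of the series exceeds 7.48%, a value found in cluster 8 itself. Malat1, a nuclear long noncoding RNA, took medians of 2.03%, 1.53%, 3.03% and 2.20% of the UMIs in library order, against 0.433% to 0.558% in clusters 0 and 1 of DN3 and 0.368% to 0.430% in cluster 2 of DN4.

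The cells were also shallow, with medians of 1969, 2206.5, 1481 and 1187 UMIs in library order. These are 33.2%, 40.2%, 20.8% and 12.7% of the medians of the whole libraries. Cells of other clusters with few UMIs had another composition at the median. They are the cells that the clustering left outside cluster 8. Their depth was capped and not matched, so the part of depth was not tested. The 461 cells of other clusters with no more than 2649.7 UMIs, the 90th percentile of cluster 8, had a median of 21.8% ribosomal protein, 2.39% mitochondrial and 0.709% Malat1 UMIs. When each cell was thinned to 1000 UMIs, cluster 8 showed more genes per cell (medians 745 to 764 over the 4 libraries) than clusters 0 and 1 in DN3 (631 and 622) or cluster 2 in DN4 (628 and 619). Thinning left out 13 cluster 8 cells with fewer UMIs, 7 of WT DN4 and 6 of KI DN4.

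**Figure D1:**
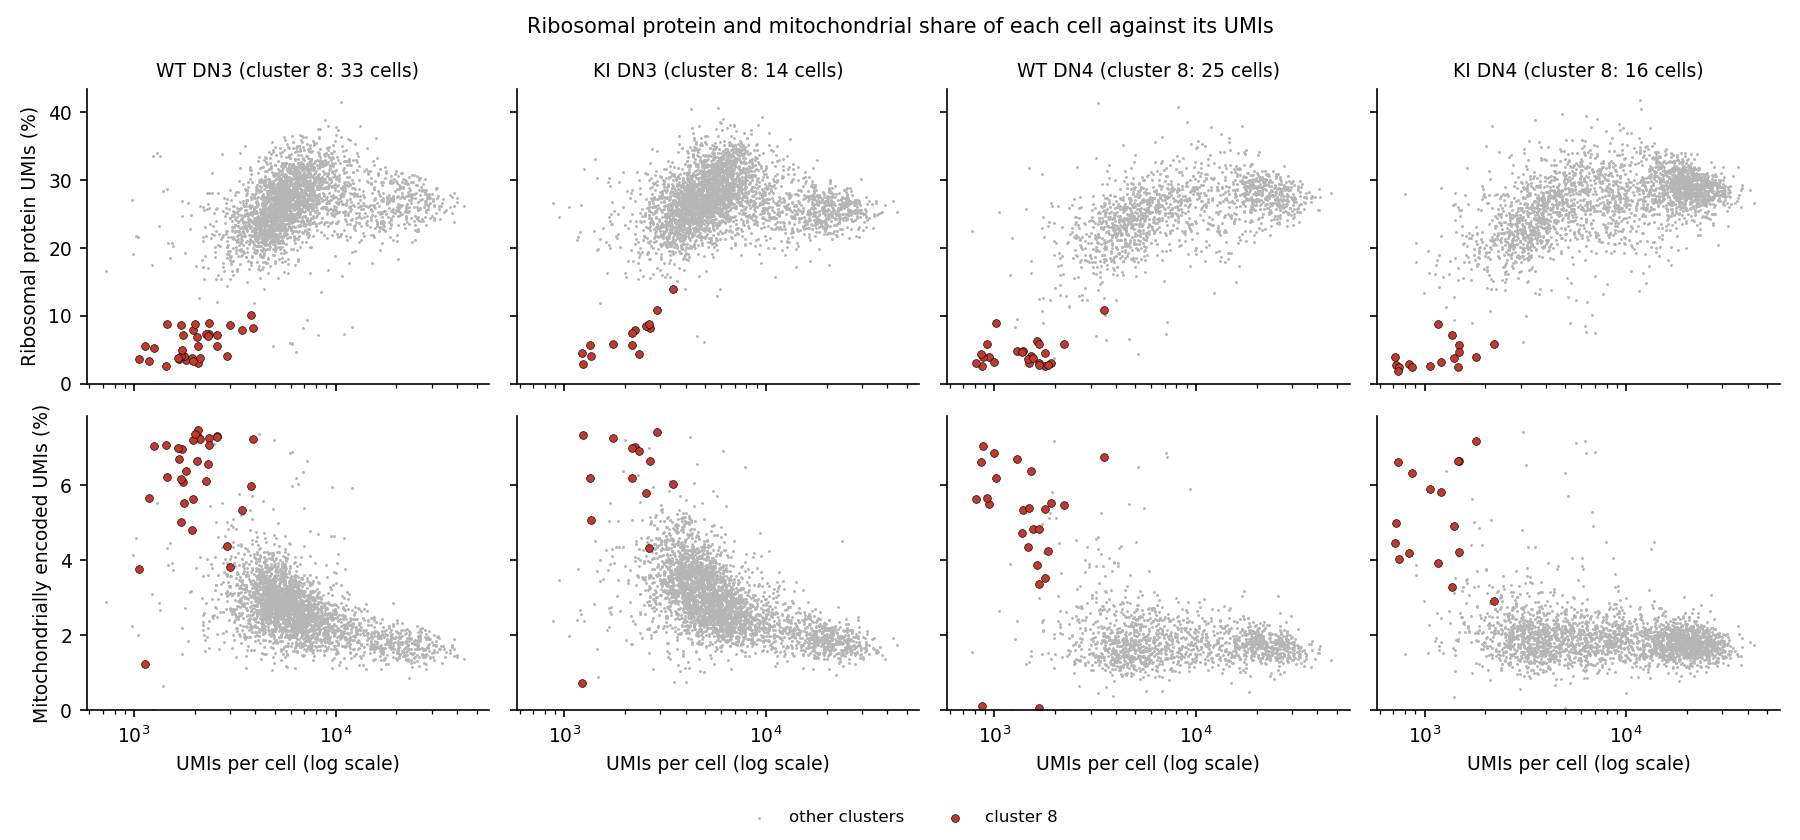
Percent of each cell's UMIs from ribosomal protein genes (top) and from mitochondrially encoded genes (bottom) against UMIs per cell on a log axis, by library, with 1 point per cell and cluster 8 in red. In each library the red points lie at the low end of UMIs, near or below 10% ribosomal protein and mostly above 4% mitochondrial.

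The genes that mark resting DN3 cells were present in the DN3 cells of cluster 8. Il2ra, the α chain of the interleukin-2 receptor and the gate for DN3 (GRCm38 chromosome 2, 11642807 to 11693193, plus strand), held 84 UMIs in WT DN3 (1218 CPM) and 41 in KI DN3 (1366 CPM). Clusters 0 and 1 of the same libraries were at 657 and 646 CPM. Over both libraries the log2 ratio was 0.95 (interval 0.69 to 1.21). With all libraries pooled against clusters 0 and 1 it was 0.32 (0.06 to 0.57), and under the TMM scaling described below -0.54, so the pooled direction of Il2ra depends on the scale. Averaged over all possible draws of 1000 UMIs per cell, the share of DN3 cells with an Il2ra UMI was 59.5% in cluster 8, 43.9% in clusters 0 and 1, and among DN4 cells 0.0337% in cluster 5. In 1 such draw 23 of 47 cells had one (48.9%, exact binomial interval 34.1% to 63.9%), an interval that includes the share of clusters 0 and 1. Without thinning the shares were 78.7% and 84.6%, at median depths of 2043 and 5146 UMIs.

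Rag1, the recombinase subunit that cuts DNA (chromosome 2, 101638282 to 101649501, minus strand), held 30 UMIs in WT DN3 (435 CPM against 156 in clusters 0 and 1) and 7 in KI DN3 (233 against 178). The WT DN3 interval lay above the level of clusters 0 and 1, while the KI DN3 interval covered it. Over both DN3 libraries the log2 ratio was 1.16 (0.65 to 1.63), and with all libraries pooled it was 0.55, or -0.31 under TMM scaling. The expected share of cells with a Rag1 UMI at 1000 UMIs was 28.2%, against 14.9% in clusters 0 and 1, and without thinning 44.7% against 48.5%. Notch1, the receptor whose signal commits cells to the T lineage, was at 1087 against 327 CPM in WT DN3 and at 966 against 339 in KI DN3, a log2 ratio of 1.66 (1.36 to 1.94).

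Ptcra and Dntt did not share this higher level. Their longest coding transcripts, of 1283 and 2130 bases, are shorter than those of Il2ra (4412), Rag1 (6608) and Notch1 (9488). Ratios followed transcript length across all genes, as given below, and the part of length in this contrast was not tested. Ptcra, the pre-Tα chain, held 38 UMIs in WT DN3 (551 CPM against 628) and 16 in KI DN3 (533 against 622). Its log2 ratio was -0.20 with an interval of -0.61 to 0.19, which includes no difference. Dntt, the transferase that adds untemplated bases at V(D)J joins, had a log2 ratio of -0.26 (-0.49 to -0.05). In the DN4 cells of cluster 8 Ptcra held 0 UMIs in both libraries, Il2ra 1 and 0, and Rag1 1 and 0. A UMI of Il2ra, Rag1 or Ptcra was found in 45 of 47 DN3 cells and in 2 of 41 DN4 cells, so the cluster's DN3 and DN4 cells differ in the genes that separate the sorted stages.

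Spi1 (chromosome 2, 91082390 to 91115756, plus strand) held 2 UMIs, both in 1 cell of WT DN3, and 0 in the other 3 libraries. The pooled log2 ratio of Spi1 over clusters 0 and 1 was 2.77 with an interval of -0.32 to 4.70. It therefore does not mark the cluster. Of the 20 genes fixed as early progenitor markers, none reached the filter of 100 CPM in the DN3 comparison, and Kit, the stem cell factor receptor, held 2, 1, 1 and 2 UMIs in library order.

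**Figure D2:**
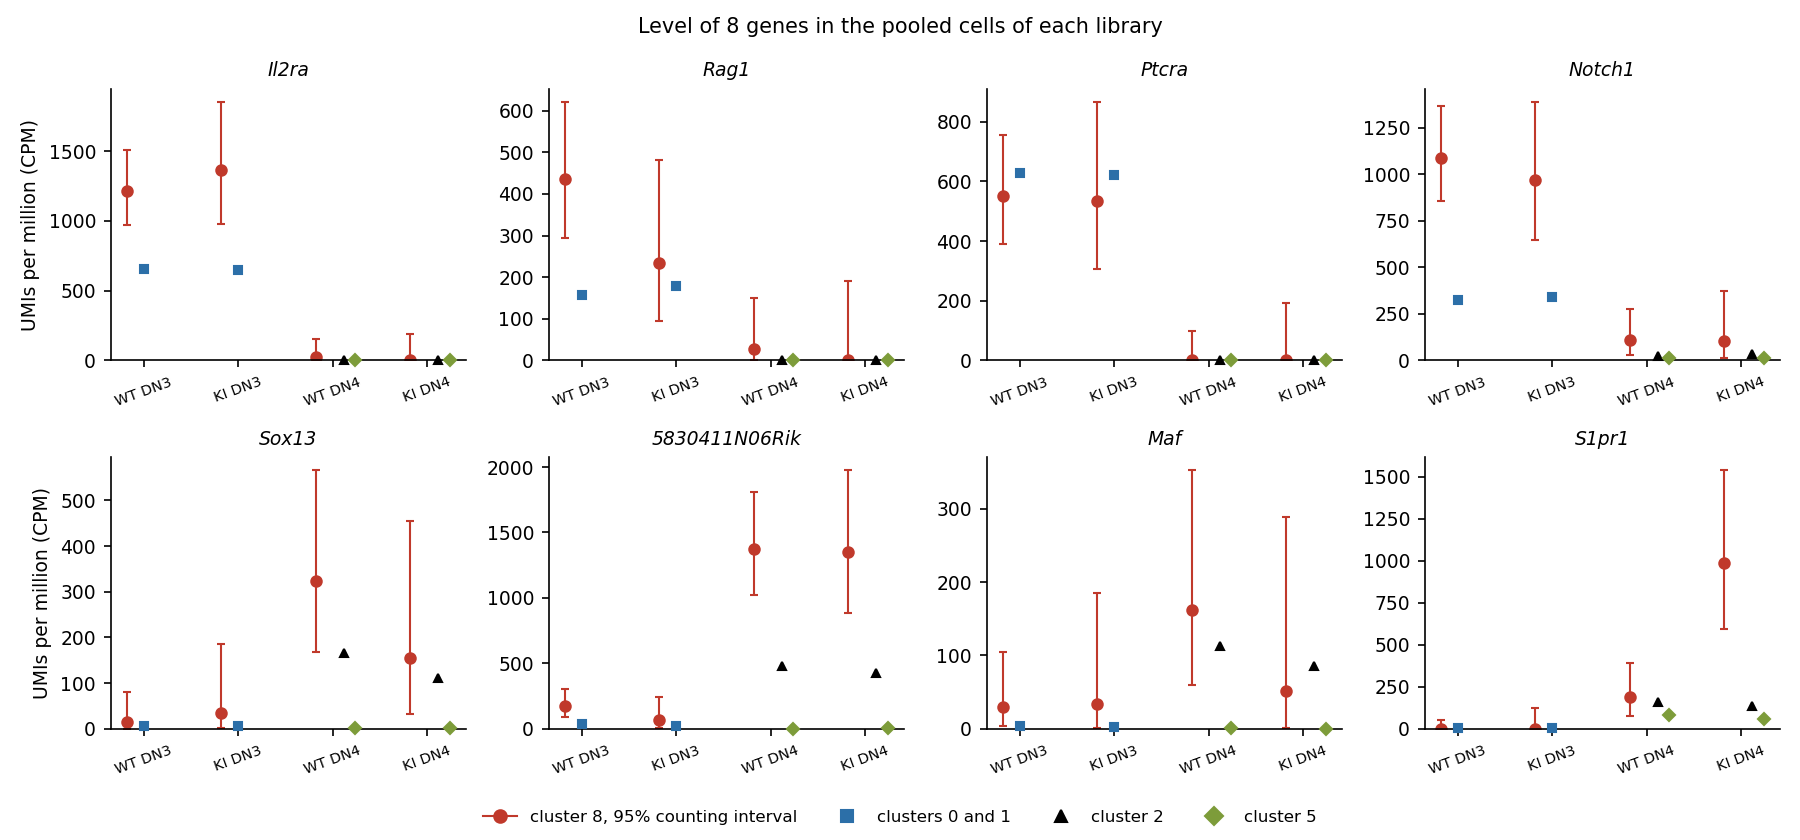
Level of 8 genes in CPM for the pooled cells of cluster 8 (red, with exact 95% Poisson intervals) and of the comparison clusters in each library. In cluster 8, Il2ra, Rag1 and Ptcra are high in the DN3 libraries and near 0 in DN4. Notch1 is high in DN3 and lower in DN4, on 4 UMIs in WT and 2 in KI. Sox13, 5830411N06Rik, Maf and S1pr1 are mainly found in DN4.

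Sox13 and 5830411N06Rik, 2 of the 25 genes of the γδ list, were found mainly in DN4 cells. Sox13 (chromosome 1, 133382303 to 133424377, minus strand) held 12 UMIs in 6 cells of WT DN4 (324 CPM) and 3 UMIs in 2 cells of KI DN4 (156 CPM), against 1 UMI in each DN3 library. Clusters 2 and 5 of DN4 were at 116 CPM (WT) and 87.5 CPM (KI), and the log2 ratio over both libraries was 1.41 (0.57 to 2.14). Pooled over all libraries, Sox13 was at 109 CPM in cluster 8 and 6.64 CPM in clusters 0 and 1, a log2 ratio of 4.04 (3.23 to 4.76). Within DN3 it was 1.60 with an interval of -1.46 to 3.48, so the pooled difference is carried by the DN4 cells of the cluster. In 1 draw of 1000 UMIs per cell, 4 of 28 DN4 cells had a Sox13 UMI (14.3%, 4.03% to 32.7%), and the expected shares over all draws were 15.3% in cluster 8, 12.3% in cluster 2 and 0.0629% in cluster 5.

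The γδ lineage gene 5830411N06Rik, a scavenger receptor gene of the same family as Cd163l1 (chromosome 7, 140247284 to 140300736, plus strand), showed the same split by stage. It held 51 UMIs in 10 cells of WT DN4 (1377 CPM) and 26 UMIs in 6 cells of KI DN4 (1349 CPM), with 12 and 2 UMIs in WT DN3 and KI DN3. The log2 ratio over clusters 2 and 5 of DN4 was 2.03 (1.69 to 2.36). Trdc, the constant gene of the δ chain, held 9 UMIs in WT DN4 (243 CPM against 400) and 12 in KI DN4 (623 against 397), and its expected share of DN4 cells at 1000 UMIs was 17.4%, against 37.9% in cluster 2 and 2.36% in cluster 5. The 2 DN4 libraries lay on opposite sides of their comparison level for this gene. Other members of the list had most of their UMIs in DN3 cells. The DN3 cells of cluster 8 also hold more UMIs in all, 98978 against 56301 in DN4, so raw counts overstate that contrast. Trgv2, a variable segment of the γ chain, held 53, 26, 15 and 10 UMIs in library order (768, 866, 405 and 519 CPM), Sox4 held 110, 41, 39 and 11, and Tmem176b 14, 9, 0 and 0. The list as a whole was thus not confined to either stage.

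Each cell of cluster 8 was next assigned to the other cluster whose pooled profile gave its UMIs the highest multinomial likelihood, leaving out ribosomal protein, mitochondrially encoded and antigen receptor genes. This step was chosen after the data had been seen. Of the 47 DN3 cells, 46 were closest to clusters 0 and 1 and 1 to cluster 6. Of the 41 DN4 cells, 23 were closest to cluster 2, 16 to cluster 5 and 2 to clusters 0 and 1, in WT DN4 13, 10 and 2 and in KI DN4 10, 6 and 0. The median margin to the second profile was 245 natural log-likelihood units, and 1 cell had a margin under 3.

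The assignment changed little when cells were thinned, which left out the 7 WT DN4 and 6 KI DN4 cells of cluster 8 under 1000 UMIs. Thinned cells of other clusters do not have the RNA composition of cluster 8, so its effect on the assignment was not tested. Cells of clusters 0 and 1, of cluster 2 and of cluster 5 thinned to 1000 UMIs returned to their own cluster in 98.1%, 90.4% and 97.5% of cases. Of the 75 cells of cluster 8 with 1000 UMIs or more, 73 kept their closest profile when thinned. Without the nuclear long noncoding genes 3 cells changed it.

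The 23 DN4 cells closest to cluster 2 held all 15 Sox13 UMIs found in DN4 cells of cluster 8, in 8 cells (505 CPM, against 135 in cluster 2 and 0.652 in cluster 5). They also held 69 UMIs of 5830411N06Rik in 15 cells (2323 CPM against 449 in cluster 2), and Maf, a transcription factor of interleukin-17-producing γδ cells, at 236 CPM against 97.1. Gzma, a cytotoxic granule protease, was at 1852 CPM against 2685 in cluster 2, and 36 of the 46 Gzma UMIs of KI DN4 came from 1 cell. Cd163l1 was at 370 against 90.8 CPM and the chemokine receptor gene Ccr8 at 539 against 161, both chosen after their values were seen.

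The 16 DN4 cells closest to cluster 5 held no UMI of Sox13, 5830411N06Rik, Cd163l1, Maf, Gzma or Blk. Il2rb, the β chain shared by the interleukin-2 and interleukin-15 receptors, was at 654 CPM in these cells, against 555 in cluster 5 and 75.0 in cluster 2. S1pr1, the receptor through which mature thymocytes leave the thymus, was at 467 CPM against 72.0 in cluster 5, and Cd2 at 513 against 419. Ccl5 was at 93.4 against 233 CPM, and Xcl1 and Tigit held 0 UMIs where cluster 5 was at 125 and 129 CPM. Trdc held 5 UMIs, all in 1 cell. Sox13, 5830411N06Rik, Cd163l1, Maf, Gzma, Blk and Il2rb, which separate cluster 2 from cluster 5, separated the DN4 cells of cluster 8 as well. They must do so where they weigh in the assignment. Some other genes did not separate these cells. Xcl1 and Tigit also held 0 UMIs in the 23 cells closest to cluster 2. Ccl5 held 0 UMIs there, against 2 UMIs in 1 of the 16 cells. S1pr1 was at 539 CPM in the 23 cells, near its 467 CPM in the 16.

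The receptor libraries had no part in the expression clusters and were joined to the cells by barcode. In DN3, 3 of 47 cells of cluster 8 carried an assembled productive TRB (β chain) contig, or 6.38% (exact binomial interval 1.34% to 17.5%). In clusters 0 and 1 of DN3 the share was 5.78% (273 of 4724 cells), and in clusters 3 and 4 of DN3 it was 84.3% (669 of 794). No DN3 cell of cluster 8 had a TRA (α chain) contig, 0 of 47 cells, which allows a share of up to 7.55%. The DN3 cells of cluster 8 therefore lay within counting error of clusters 0 and 1 and far from clusters 3 and 4 in this readout.

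The 3 β junctions of the DN3 cells are printed because they show which rearrangements these cells held. Each runs 5′ to 3′ from the conserved cysteine codon of V to the conserved phenylalanine codon of J, as read in the deposited contigs. Lower case marks bases that match the germline V or J segment of GENCODE vM21, and capitals mark the bases between them that match neither, which can come from a D segment or from added nucleotides.
KI DN3 TRBV12-2 TRBJ1-6: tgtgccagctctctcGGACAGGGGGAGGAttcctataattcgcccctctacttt
WT DN3 TRBV5 TRBJ1-6: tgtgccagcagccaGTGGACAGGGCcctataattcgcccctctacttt
WT DN3 TRBV17 TRBJ2-7: tgtgctagcaCTCaacagtacttc

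The KI DN3 junction was supported by 24 UMIs, the TRBV5 junction by 7 and the TRBV17 junction by 3. They are 54, 48 and 24 bases long and keep the reading frame. The shortest holds 3 bases that match neither germline segment, against 14 and 11 in the others. Trbv12-2 RNA itself held 21 UMIs in the KI DN3 cells of cluster 8, of which 17 lay in the cell with that contig, and 0 in the WT DN3 cells.

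In DN4, 9 of 41 cells of cluster 8 carried a productive TRB contig, or 22.0% (10.6% to 37.6%), and 4 a productive TRA contig, or 9.76% (2.72% to 23.1%). Split by closest profile, 3 of the 23 cells closest to cluster 2 had a productive TRB contig (13%, 2.78% to 33.6%), against 18.7% in cluster 2. Of the 16 cells closest to cluster 5, 6 had one (37.5%, 15.2% to 64.6%), against 89.9% in cluster 5 and 83.3% in its 126 cells with few UMIs. For productive TRA the shares were 25% (7.27% to 52.4%), 81.9% and 67.5%. By library, 6 of 10 such cells of WT DN4 had a productive TRB contig (60%, 26.2% to 87.8%, against 82.5% of the few-UMI cells of cluster 5) and 0 of 6 of KI DN4, which allows a share of up to 45.9%, against 83.7%. The TRA shares were 30% (6.67% to 65.2%) against 60% in WT DN4, and 16.7% (0.421% to 64.1%) against 70.9% in KI DN4. The pooled TRB difference lay beyond counting error in KI DN4 and within it in WT DN4. Depth was capped and not matched, since the 16 cells had a median of 1395 UMIs and the 126 cells of cluster 5 one of 2060.5. The 15 cells of cluster 5 with the fewest UMIs (median 1201, at most 1486) had productive TRB in 66.7% (38.4% to 88.2%) and productive TRA in 40% (16.3% to 67.7%), and these intervals overlap those of the 16 cells. Of these 15 cells 13 are from KI DN4 and 2 from WT DN4, so the pooled values also mix libraries. Within KI DN4 productive TRB was found in 0 of 6 cells (median 1288.5 UMIs) against 8 of 13 (61.5%, 31.6% to 86.1%, median 1241 UMIs). Productive TRA was found there in 1 of 6 against 6 of 13 cells. Overlap of intervals does not decide whether the shares differ, and a difference at equal depth was not tested.

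The junctions below are from DN4 cells of cluster 8 and show what the cells of either kind carried. The first 3 come from cells closest to cluster 2, and none of the 23 such cells had a TRA contig.
WT DN4 TRBV20 TRBJ1-1: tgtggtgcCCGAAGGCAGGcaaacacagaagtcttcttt
WT DN4 TRBV29 TRBJ2-7: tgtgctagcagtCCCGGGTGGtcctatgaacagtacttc
KI DN4 TRBV12-1 TRBJ2-2: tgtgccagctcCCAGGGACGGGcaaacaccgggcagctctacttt
The next 4 come from cells closest to cluster 5, the first pair from 1 cell with both chains and the second pair from another.
WT DN4 TRBV13-1 TRBJ2-7: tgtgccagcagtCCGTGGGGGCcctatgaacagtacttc
WT DN4 TRAV16 TRAJ37: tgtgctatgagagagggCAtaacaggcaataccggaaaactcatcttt
WT DN4 TRBV12-2 TRBJ2-7: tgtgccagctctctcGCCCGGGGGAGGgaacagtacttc
WT DN4 TRAV9D-3 TRAJ27: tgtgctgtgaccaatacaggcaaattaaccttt
The last is the only junction of cluster 8 that was found in more than 1 cell.
KI DN4 TRAV3D-3 TRAJ26: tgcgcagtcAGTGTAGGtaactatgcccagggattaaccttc

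This KI DN4 TRA junction was found under 3 barcodes of that library, 1 in cluster 8, 1 in cluster 5 and 1 without an expression profile. The TRAV9D-3 junction holds 0 bases outside the germline segments and rests on a contig of 1 UMI. The 12 productive TRB contigs of cluster 8 had a median of 6.5 UMIs, against 16 in clusters 0 and 1, 25 in cluster 2 and 15 in cluster 5. For 11 of the 12, the V gene of the contig also had a UMI in the expression profile of the same cell. Both libraries come from the same barcoded cells, so this is not independent support for the contigs.

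**Figure D3:**
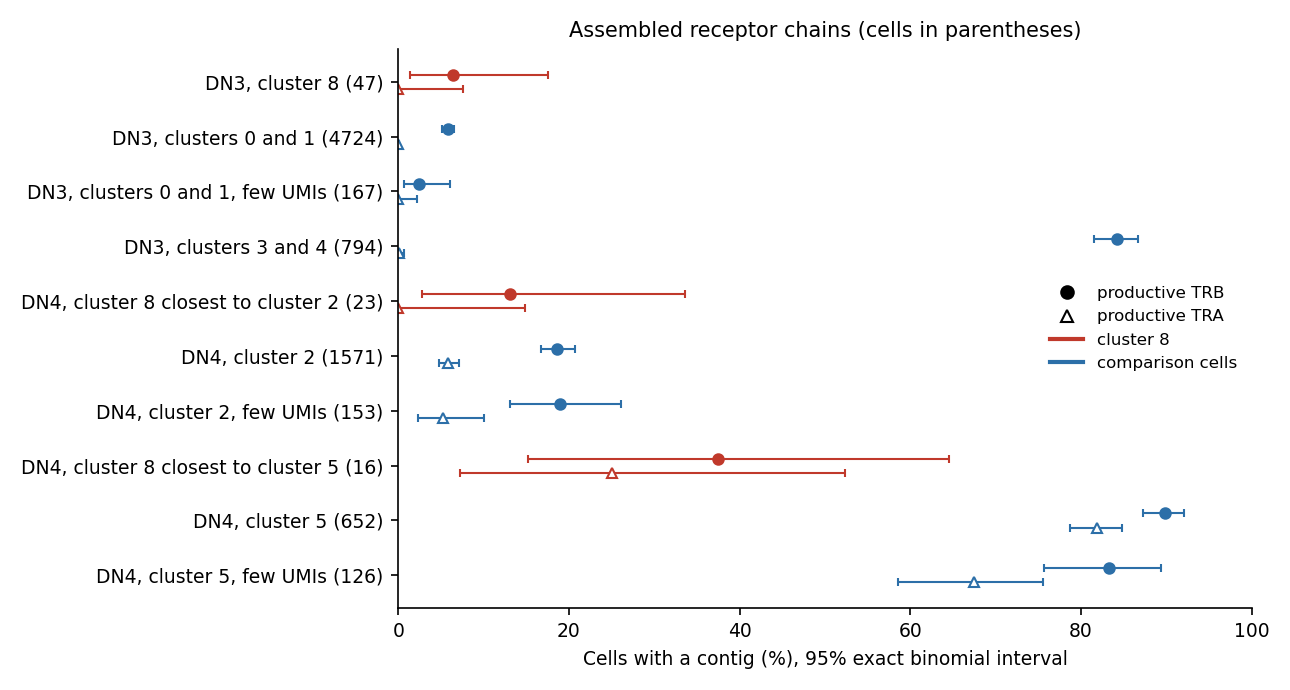
Percent of cells with a productive TRB (circles) or TRA (triangles) contig, with exact 95% binomial intervals, for cluster 8 in red and its comparison cells in blue, where few UMIs means no more than the 90th percentile of cluster 8. The DN3 cells of cluster 8 sit with clusters 0 and 1 near 6%, while cells of clusters 0 and 1 with few UMIs are at 2.40%. The cells closest to cluster 5 sit below cluster 5 and below its cells with few UMIs, which are still deeper.

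Across genes, cluster 8 differed widely from both reference groups. Against clusters 0 and 1, with all libraries pooled, 4979 genes had at least 50 CPM in either pool. Of these, 2066 (41.5%) were at least 2-fold higher in cluster 8 and 546 (11.0%) at least 2-fold lower, with a median log2 ratio of 0.74. A gene can pass this filter through cluster 8 alone, and such a gene is higher there by construction. With the filter on the comparison pool only, at 100 CPM within DN3, 15.0% of genes were higher and 23.4% lower. These 2 comparisons also differ in the threshold and in the cells used, so the part of the filter alone was not tested. The excess of higher genes in the pooled comparison is not taken as a result about cluster 8. The split also depends on the scale. With TMM scaling, which assumes that most genes do not differ and divided the ratios by 1.82, 552 of 4633 genes were 2-fold higher and 1443 lower, and with ribosomal protein and mitochondrially encoded genes left out of the totals the counts were 1605 and 904 of 5614. Against cluster 2, of 4950 genes 2112 (42.7%) were higher and 603 (12.2%) lower, with 564 and 1521 of 4621 under TMM scaling and 1792 and 890 of 5561 without ribosomal protein and mitochondrially encoded genes in the totals. The number tested moves because the filter is applied to the scaled CPM.

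The genes named here from this pooled comparison had to lie on the same side of clusters 0 and 1 in the WT DN3 and in the KI DN3 library taken alone. Genes with no UMI in the DN3 cells of cluster 8 are left out by that rule, and some had far larger pooled ratios. Cd2 (21 UMIs) and Il2rb (19 UMIs), each with 1 UMI in clusters 0 and 1, had log2 ratios of 11.75 (9.11 to 17.12) and 11.60 (8.95 to 16.98), Etv5 of 8.01 and S1pr1 of 6.77, all from DN4 cells. Among the genes that met the rule, 5830411N06Rik had a log2 ratio of 4.27, Maf of 4.24, Il6st, the signal-transducing chain of the interleukin-6 receptor family, of 4.01, Camk4, a calcium-dependent kinase, of 3.86 and Slc2a3, a glucose transporter, of 3.83. Rasa3, which restrains Ras-family GTPases, stood at 4.25, the NF-κB regulators Nfkbiz at 4.11 and Rel at 3.45, and the cytoskeletal linker Macf1 at 3.52. Adamts10 and Ankrd44 complete the 12 with Sox13, at 3.56 and 3.67. At least Camk4, Adamts10, Il6st, Ankrd44, 5830411N06Rik, Maf and Sox13 passed the filter through cluster 8 alone. In clusters 0 and 1 of WT DN3 Camk4, Adamts10 and Il6st were at 11.6, 12.2 and 6.47 CPM. Ankrd44 and 5830411N06Rik were at 17.5 and 38.3 CPM in the same cells. Ratios of genes that entered in this way are high in part through the filter.

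The genes farthest below by the same rule included subunits of the respiratory chain. Atp5e, a subunit of ATP synthase, had a log2 ratio of -3.74, Cox7b of cytochrome oxidase -3.06, and Ndufb4 and Ndufb10 of complex I -2.95 and -2.92. Mrpl32 of the mitochondrial ribosome was at -2.93, Sec61g of the protein translocation channel at -2.88, the splicing protein gene Snrnp27 at -3.36 and Pycard, the inflammasome adaptor ASC, at -3.53. Gm10073 was at -3.60, and Eef1akmt1, Txndc17 and Dynlrb1 lay between -3.03 and -2.93. These values rest on few UMIs in cluster 8, from 9 for Atp5e (interval -4.87 to -2.82) to 1 for Snrnp27 (-8.67 to -0.88) and Eef1akmt1 (-8.34 to -0.55). The intervals were -5.88 to -2.05 for Gm10073 on 3 UMIs, and on 2 UMIs each -6.57 to -1.67 for Pycard, -6.03 to -1.13 for Txndc17 and -5.98 to -1.08 for Mrpl32.

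Against cluster 2 the largest ratios were those of genes that DN3 cells carry. Ptcra was at 54 against 3 UMIs (log2 ratio 10.00, 8.38 to 12.33) and Rag1 at 38 against 4 (9.08, 7.61 to 11.03). Cdkn1a, the p21 cell cycle inhibitor, was at 24 against 2 UMIs (9.42, 7.41 to 12.54), Bst1 at 11 against 1 (9.29, 6.51 to 14.72), and Mst1r and Olfr1507 each at 9 against 2 (interval 5.73 to 11.25). The lowest were Gm9844 at -5.06 (-8.11 to -3.21), Klk8 at -4.67 (-9.97 to -2.18) and Nrgn at -4.40 (-9.71 to -1.92). They were followed by Izumo1r, the folate receptor gene of regulatory T cells, at -4.36 (-9.67 to -1.88), Tox2 at -4.12 (-9.42 to -1.64) and Pycard at -4.10 (-7.14 to -2.24), each on 1 or 2 UMIs in cluster 8. Stage and cluster cannot be told apart here, since cluster 2 is almost all DN4 and 47 of the 88 cells are DN3.

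Comparisons within a stage remove that difference, and were added after the data had been seen. In DN3 the floor of 3 UMIs in cluster 8 is 30.3 CPM, so genes were required to reach 100 CPM in clusters 0 and 1. Of 1568 such genes 235 (15.0%) were at least 2-fold higher in cluster 8 and 367 (23.4%) at least 2-fold lower, with a median log2 ratio of -0.07. In DN4, where the floor is 53.3 CPM, 1575 genes were compared with clusters 2 and 5, of which 246 (15.6%) were higher and 468 (29.7%) lower, with a median of -0.29.

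These splits depend on the scale as well. With ribosomal protein and mitochondrially encoded genes left out of the totals, each log2 ratio falls by 0.33 in DN3 and 0.32 in DN4, and the same genes gave 104 higher and 494 lower in DN3 and 153 and 612 in DN4. Under TMM scaling each log2 ratio falls by 0.81 in DN3 and 0.96 in DN4, which left 26 higher and 726 lower in DN3 and 33 and 904 in DN4. The medians of all genes tested were then -0.88 and -1.25, while the assumption behind TMM would put them near 0. The TMM factor was also larger for the smaller pool of each stage. It was 1.78 for WT DN3 (68971 UMIs of cluster 8) and 2.02 for KI DN3 (30007 UMIs). For the DN4 libraries it was 2.04 (WT, 37025 UMIs) and 2.38 (KI, 19276 UMIs). The effect of pool size on the factor was not tested, so TMM values do not decide a direction. Of the gene lists with 3 or more tested members, 14 of 22 had a median above 0 in DN3 and 12 of 23 in DN4 by total UMIs. TMM scaling put 5 of those 14 and 7 of those 12 below 0. Directions below are by total UMIs, with the TMM value beside the main lists. Every list count below is to be read beside the shares over all genes tested. These were 15.0% higher and 23.4% lower in DN3, and 15.6% and 29.7% in DN4.

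Most genes called in 1 stage and tested in both were called in the same direction in the other, without a test of the difference between stages. Of 1291 genes tested in both, 113 were 2-fold higher in both, which is 68.1% of those higher in DN3 and 64.6% of those higher in DN4. A further 273 were lower in both, 81.0% and 65.0% of the lower genes of each stage. The log2 ratios of the stages correlated at r = 0.83 across genes, which are not independent replicates. The 1 gene called in opposite directions was Elovl5, a fatty acid elongase, with log2 ratios of 1.14 in DN3 and -1.16 in DN4 on 25 and 3 UMIs, named after its values were seen.

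Ribosomal protein genes were lower throughout. In DN3, 75 of 77 tested were at least 2-fold lower and none higher, with a median log2 ratio of -2.14, and in DN4 75 of 78, with a median of -2.46. The medians within the libraries were -2.21, -1.87, -2.32 and -2.61 in library order, so each library showed it. The least affected in DN3 was Rpl27 at -0.61 and in DN4 Rpl36al at -0.34.

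The nuclear genes of the respiratory chain were lower as well, 16 of 17 in DN3 (median -1.53) and 14 of 18 in DN4 (median -1.40). Cox4i1 was at 303 against 1033 CPM in DN3, and Uqcrh at 152 against 896. Atp5b, the catalytic β subunit of ATP synthase, stood apart from the list with a log2 ratio of -0.29 (-0.64 to 0.05) among DN3 cells and -0.07 (-0.60 to 0.41) among DN4 cells. The mitochondrially encoded partners of these complexes were higher, 8 of 12 in DN3 (median 1.09) and 12 of 12 in DN4 (median 1.35). Under TMM scaling none was 2-fold apart, with medians of 0.27 and 0.39. By total UMIs their medians were 1.12, 1.02, 1.42 and 1.22 in library order.

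The nuclear long noncoding RNAs differed between themselves. Malat1 was at 20081, 18696, 29034 and 30193 CPM in library order, against 5636 and 4419 in clusters 0 and 1 of DN3 and 4198 and 3632 in cluster 2 of DN4. Its log2 ratio was 1.97 in DN3 and 2.60 in DN4. Gm26917 had log2 ratios of 1.18 and 3.25. Gm42418, a gene that overlaps a ribosomal RNA repeat, was at -1.55 in DN3 and 0.69 in DN4. That DN4 value rests on 2 cells, which hold 680 of the 798 Gm42418 UMIs of KI DN4.

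Transcription factors of T lineage commitment were higher in both stages by total UMIs, 6 of 9 tested in DN3 (median log2 ratio 1.39) and 8 of 12 in DN4 (median 1.25), with none lower. Under TMM scaling 0 of 9 and 1 of 12 were 2-fold higher and none lower, with medians of 0.58 and 0.30. Bcl11b, needed for commitment, was at 739, 600, 945 and 519 CPM in library order, where the comparison cells were at 355, 331, 211 and 187. Runx1 was higher by 1.61 in DN3 and 1.65 in DN4 on the log2 scale, Ikzf2, which encodes Helios, by 1.69 and 1.41, and Myb by 1.39 and 1.04. Tcf7, the TCF-1 gene, was higher by 0.88 (0.59 to 1.16) in DN3, and in DN4 its ratio of 0.29 had an interval of -0.13 to 0.68.

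Immediate early genes were higher in 6 of 10 tested members in DN3 (median 1.25) and in 4 of 13 in DN4 (median 0.75), with 1 lower in DN4. Under TMM scaling 1 was higher and 1 lower in DN3 (median 0.44), and 1 higher and 2 lower in DN4, where the median turned to -0.20. Jun, a subunit of AP-1, was at 2813, 2000, 999 and 571 CPM in library order, where the comparison cells were at 714, 856, 224 and 276. The groups were thus apart in each library, and the level in DN3 cells was the higher one. Junb held medians of 24, 9, 4 and 3 UMIs per cell in library order, and its log2 ratio was 1.43 in DN3 and 0.73 in DN4. The member lower in DN4 was the chaperone gene Hspa8, at -1.26 (-1.67 to -0.87), with -0.44 in DN3. Fos had log2 ratios of 1.94 and 1.96 in the stages and was chosen after its values were seen.

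Among the 10 pre-selection DN3 genes tested in DN3, 3 were 2-fold higher and none lower (median 0.70), and under TMM scaling none higher and 4 lower (median -0.11). The 3 were Rag1, Notch1 and Tcf12, an E protein gene at 495 against 150 CPM. Notch receptors and targets gave 3 of 8 higher (median 0.92, or 0.11 under TMM scaling with 0 higher and 1 lower), and recombinase and end-joining genes 1 of 5 (median -0.04), the 1 being Rag1. These lists share members, so their counts are not separate. In DN4, pre-selection genes gave 0 of 3 in either direction (median -0.62).

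Antigen receptor constant genes were lower in part. Of the 6 constant genes tested in DN3, 3 were 2-fold lower and none higher (median -1.04), and of 7 in DN4, 4 were lower (median -1.02). By library 5 of 6, 2 of 6, 5 of 7 and 1 of 7 were lower in library order, with medians of -1.51, -0.68, -1.29 and -0.30. Trbc1 was at 116 against 440 CPM in WT DN3 and 800 against 573 in KI DN3, and the KI interval included equality (-0.16 to 1.06 on the log2 scale). Trbc2 had log2 ratios of -1.22 (-1.81 to -0.68) in DN3 and -1.02 (-1.69 to -0.42) in DN4, and Tcrg-C1 of -1.66 (-2.66 to -0.82) in DN3, where Trdc stood at -1.49. The genes of the CD3 complex, which carries the receptor to the surface, followed in part, with Cd3d at -1.29 in DN3 and -1.17 in DN4, Cd3g at -0.84 and -0.90, and Cd3e at -0.35 and -0.54. Cd3e was lower in the WT libraries (log2 ratios of -0.60 and -1.07) and stood at 0.11 (-0.24 to 0.43) in KI DN3 and 0.13 (-0.45 to 0.65) in KI DN4. The kinase gene Lck differed from these, at 0.09 (-0.12 to 0.30) among DN3 cells and 0.51 (0.12 to 0.87) among DN4 cells. The γδ list as a whole gave 1 higher and 2 lower of 7 in DN3 (median -0.77) and 2 higher and 2 lower of 12 in DN4 (median -0.18), with Sox4, a partner of SOX13 in the γδ lineage, the higher member in DN3 at 1.32 and Sox13 and 5830411N06Rik the higher ones in DN4.

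Genes of trafficking and of mature T cells were higher in part. Homing and egress genes gave 2 of 4 in DN3 (median 1.06) and 4 of 6 in DN4 (median 1.26), or 1 and 0 under TMM scaling (medians 0.25 and 0.30). Itga4, the α4 integrin, was at 464 against 93 CPM in WT DN3 and 833 against 108 in KI DN3, a log2 ratio of 2.52 (2.11 to 2.90). S1pr1 was at 189 against 137 CPM in WT DN4 and 986 against 119 in KI DN4, on 7 and 19 UMIs, so its DN4 ratio of 1.86 came mainly from the KI library. The mature αβ list gave 6 higher and 1 lower of 11 in DN4 (median 1.14), or 0 and 2 under TMM scaling (median 0.18), and 0 of 4 in DN3.

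The remaining lists had fewer tested members or members on both sides. Their counts stand beside shares of 15.0% higher and 23.4% lower over all genes in DN3, and 15.6% and 29.7% in DN4, and counts such as 2 of 10 or 2 of 11 are near them. Proximal receptor signalling gave 1 higher and 1 lower of 10 in DN3, and 2 and 1 of 13 in DN4. Ptprc, the CD45 phosphatase gene, was the higher member in DN3 and at 870, 1333, 2107 and 2750 CPM in library order, where the comparison cells were at 260, 276, 483 and 504. The lower member in both stages was Cd3d. Genes of the response to β-selection gave 2 of 5 higher in DN3 and 2 of 10 in DN4, among them Cd69 at 1.43 and 2.20. Double-positive stage genes gave 4 of 5 higher in DN3 (median 1.19), among them Arpp21 and Themis at 1.19 and 1.37, and 0 of 3 in DN4, with 0 of 5 under TMM scaling in DN3 (median 0.38). Myc and growth genes gave 2 higher and 1 lower of 11 in DN3, with the amino acid transporter Slc7a5 at 1.91, and 0 higher and 4 lower of 8 in DN4, with the glycolytic enzyme gene Aldoa at -2.19. Cytokine receptor and STAT5 genes gave 1 of 4 and 1 of 5 higher, Jak1 being the member in DN3 at 1.24. Interferon response genes gave 0 higher and 1 lower of 3 in DN3, and 1 and 1 of 6 in DN4, with Bst2 at -1.03 in DN3. S phase genes gave 1 of 3 higher in DN3, Uhrf1 at 1.56, and 0 of 3 in DN4.

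**Figure D4:**
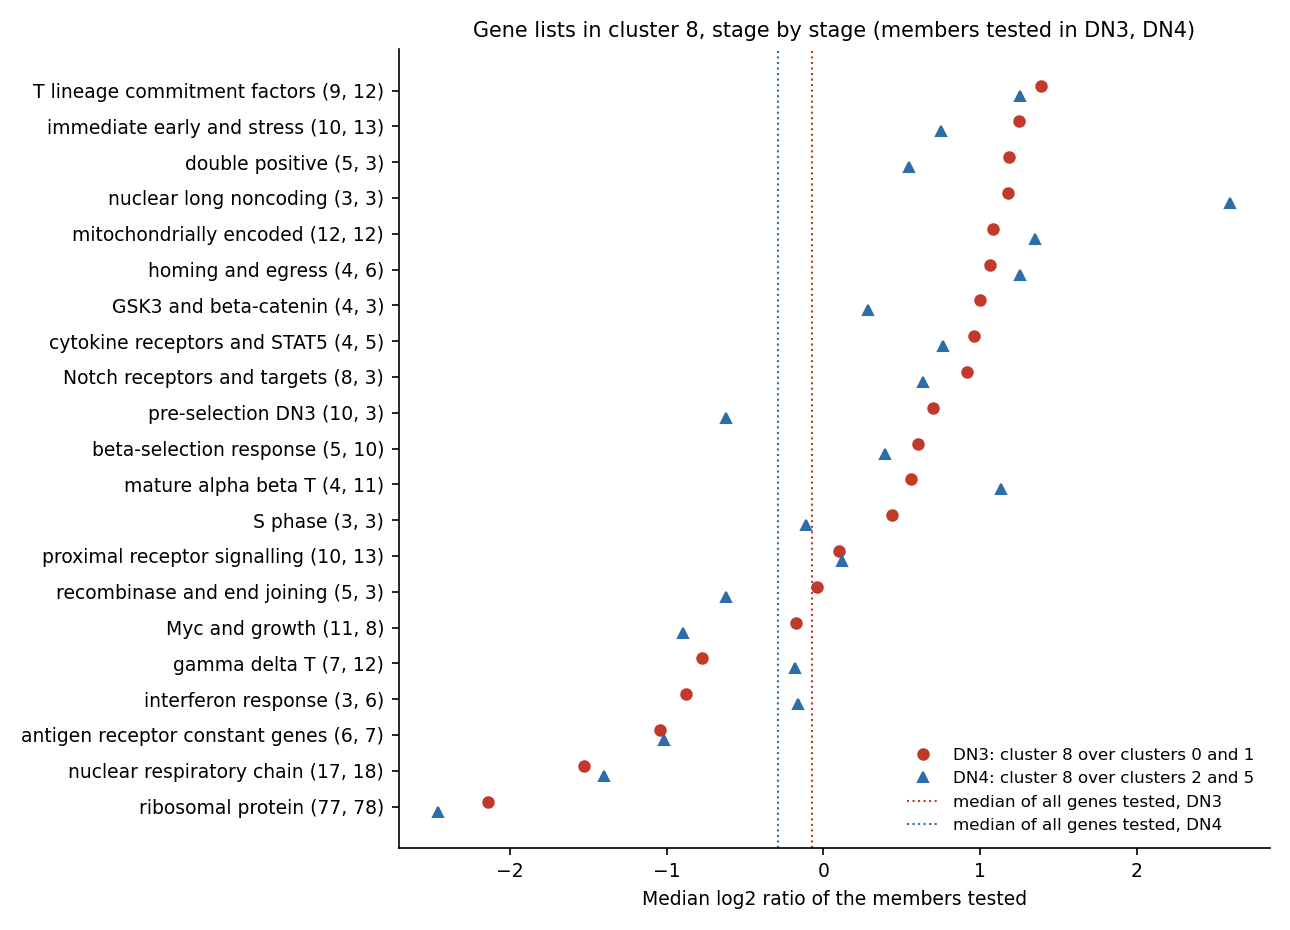
Median log2 ratio of the tested members of 21 gene lists in cluster 8 over its stage-matched comparison cells, in DN3 (red circles) and DN4 (blue triangles), with dotted lines at the median of all genes tested and the number of members tested in parentheses. Ribosomal protein and nuclear respiratory chain genes lie lowest in both stages, while commitment factors, mitochondrially encoded and nuclear long noncoding genes lie above 1 by total UMIs. TMM scaling would move every DN3 point down by 0.81 and every DN4 point by 0.96.

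Across all genes, the ratio followed the length of the transcript. Taking the longest coding transcript of each nuclear gene in GENCODE vM21, the log2 ratio correlated with the logarithm of length at r = 0.70 over 1528 genes in DN3 and r = 0.65 over 1526 genes in DN4. Without ribosomal protein genes the values were 0.69 and 0.63. For GC content they were -0.10 and -0.15 over the same genes. These are descriptions across genes that share the same cells.

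In DN3, without ribosomal protein genes, the median log2 ratio was -1.33 for 190 genes with transcripts under 1000 bases, -0.35 for 471 of 1000 to 2000 bases, 0.25 for 332 of 2000 to 3000, 0.67 for 287 of 3000 to 5000 and 1.12 for 171 of 5000 bases or more. Of the shortest class 135 were 2-fold lower and 0 higher, and of the longest 2 were lower and 102 higher. In DN4 the medians over the same classes were -1.47, -0.66, -0.07, 0.49 and 1.14. The order by length was thus the same in both stages. The median length was 4656 bases for the genes higher in DN3 and 1042 bases for those lower, and 4378 and 1286 bases in DN4.

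This relation stands beside every gene group above, and its part in those results was not tested. In genes under 500 CPM without ribosomal protein and respiratory chain genes, the shortest class still had a median of -1.31 and the longest 1.15 in DN3.

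**Figure D5:**
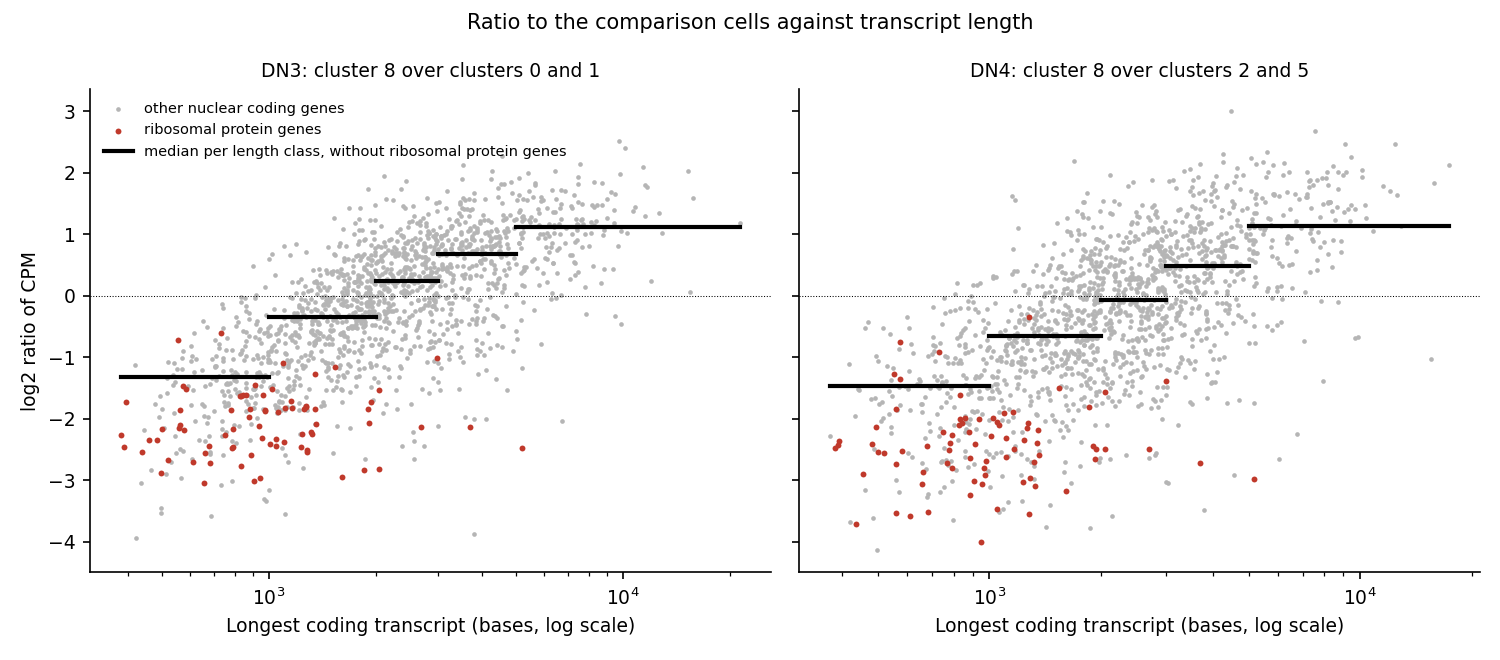
Log2 ratio of CPM in cluster 8 over stage-matched comparison cells against the longest coding transcript (log axis), 1 point per nuclear gene, with ribosomal protein genes in red and black bars for the median of each length class without them. The bars climb from -1.33 to 1.12 in DN3 and from -1.47 to 1.14 in DN4.

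The cluster took up a larger share of the WT than of the KI libraries. In DN3 it made up 1.14% of the WT cells (0.789% to 1.60%) and 0.425% of the KI cells (0.232% to 0.711%), a ratio of 2.69 (1.40 to 5.45). In DN4 the shares were 1.69% (1.10% to 2.49%) and 0.621% (0.355% to 1.01%), a ratio of 2.73 (1.40 to 5.46). Among cells with no more than 2649.7 UMIs the cluster made up 28 of 91, 11 of 120, 24 of 99 and 16 of 230 in library order. The intervals cover counting of cells and not differences between mice or between preparations, which with 1 library per group cannot be told apart from genotype. Among cells of at most 6% mitochondrial UMIs the DN3 shares were 0.386% in WT and 0.122% in KI, and the value for WT DN3 among cells of at least 2000 UMIs was 0.562%.

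Gsk3b, the gene altered in KI mice (chromosome 16, 38089001 to 38246084, plus strand), held 21, 13, 18 and 3 UMIs in library order (304, 433, 486 and 156 CPM). The KI allele changes a codon, so the level does not check the labels. Against the stage-matched cells its log2 ratio was 1.45 (0.91 to 1.93) in DN3 and 1.53 (0.83 to 2.14) in DN4, by total UMIs. Cd96, 1 of the genes known from earlier results of these data to be lower in KI cells, held 9, 0, 6 and 1 UMIs in library order. In clusters 0 and 1 of DN3 it was at 78.9 CPM (WT) and 2.55 CPM (KI).

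Between KI and WT within the DN3 cells of cluster 8, 3020 genes had at least 100 CPM in either library. Of these, 522 (17.3%) were at least 2-fold higher in KI and 457 (15.1%) at least 2-fold lower, on 30007 and 68971 UMIs, where 3 UMIs amount to 99.98 CPM in KI. In clusters 0 and 1 of DN3, with far more UMIs, the same rule gave 2 genes higher (0.121%) and 6 lower (0.364%) of 1648. The interval excluded equality for 104 of the higher and 52 of the lower genes of cluster 8, and with ribosomal protein and mitochondrially encoded genes left out of the totals the counts at 2-fold were 841 and 439. Most of the 2-fold differences thus lay within counting error at this depth. Intervals at 95% also leave out equality for some genes when nothing differs. No correction was made for the 3020 genes tested, so the 104 and 52 genes are not taken as differences between KI and WT. The same holds for the genes named next by rank.

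By the naming rule the highest in KI were Serinc3 (8 against 1 UMIs, log2 ratio 4.20, 1.30 to 9.67), Ppip5k2 (4.01, 1.05 to 9.50), Eri1 and Itfg1 (both 3.79, 0.74 to 9.31), and Trbv12-2 (21 against 0 UMIs, at least 16.1-fold higher against a floor of 3 UMIs). The Trbv12-2 value is that of 1 cell with 17 UMIs, described with its junction above. Among the lowest were Cdkn1a, with 1 UMI in KI against 23 in WT (log2 ratio of -3.32, -8.69 to -0.70), Klf4 at -3.12 (-8.49 to -0.48), and Herc2 and Fam208b both at -2.97 (-8.35 to -0.31). The 23 Cdkn1a UMIs of WT DN3 were spread over 12 of 33 cells. Of the other p53 targets, Bax held 6 UMIs in WT DN3 and 5 in KI DN3, and Trp53inp1, chosen after its values were seen, 27 and 7 (391 and 233 CPM, against 81.4 and 67.6 in clusters 0 and 1). For Il2ra and Rag1 the intervals of KI over WT included equality, with log2 ratios of 0.17 (-0.41 to 0.72) for Il2ra and -0.90 (-2.33 to 0.32) for Rag1.

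By the authors' deposited phase calls, 39 of 47 DN3 cells (83.0%, 69.2% to 92.4%) and 35 of 41 DN4 cells (85.4%, 70.8% to 94.4%) of the cluster were in G1. In clusters 0 and 1 of DN3 the share was 96.6%, and in clusters 2 and 5 of DN4 it was 91.4%. None of the 20 G2/M genes reached the filter in either stage, and they held 17 UMIs in the DN3 cells and 14 in the DN4 cells. With a method of calling that is not given and few UMIs per cell, no cycling was read from these calls.

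Markers of other cell types were scarce. The 3 erythroid markers in the matrix held 0 UMIs in both stages. Myeloid markers held 10 UMIs in DN3 and 3 in DN4, mast cell and basophil markers 4 and 11, and B cell markers 22 and 47, of which Ighm gave 42 in 6 cells of WT DN4, while Cd79a was at 0 in all 4 libraries. Dendritic cell markers held 103 and 74 UMIs, of which Ccr9, which thymocytes also express, gave 39, 13, 35 and 31 in library order. Of the 12 stromal and epithelial markers, 5 are in the matrix, and they held 43 and 14 UMIs. No doublet was called among the 88 cells.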

How the data were processed

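The authors deposited raw UMI counts per gene and cell for 4 expression libraries, a table of cells with library, cluster and phase, and assembled receptor contigs for 4 receptor libraries. The genome mm10 and 2 versions of Cell Ranger, 3.1.0 and 6.0.1, are named in the submitters' processing notes, with no word on the files each produced. Of the per-sample value columns 0 were left unused. Assay, sort and the design of 1 library per group are given with the results.

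Counts were pooled over the cells of a cluster and library and divided by the pooled UMIs to give CPM. Ratios carry exact 95% intervals from the conditional binomial, shares have Clopper-Pearson intervals, and a gene was called at 2-fold or more. PCR reads behind UMIs and cells of 1 library are not independent samples, so all intervals cover counting error only. Genes needed 50 CPM in either pool, or 100 CPM in the comparison pool within a stage and in either library for KI against WT. A count of 0 was replaced by a floor of 3 UMIs. The ratio script was tested on simulated data. Software was numpy 2.4.6, scipy 1.17.1, pandas 2.3.3, scanpy 1.11.5, matplotlib 3.10.9 and, for TMM factors, edgeR 4.0.16.

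Cells were thinned to 1000 UMIs in 1 seeded draw, and since single draws differed, the hypergeometric expectation over all draws was added. Scrublet called 73 of 10237 cells doublets (0.713%), 0 in cluster 8. It called 0.139% and 0.152% in the DN3 libraries, so it may not have worked there, and doublets were left in. Receptor cells were joined by barcode, and 97 of 3947 had no expression profile. GENCODE vM21 matched 13360 of 15653 symbols as coding genes. Each junction was compared with the end of its V transcript and with its J transcript.

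The members and the 33 gene lists were chosen with earlier results of these data known. Named genes were the markers of the cluster, Gsk3b, the 12 highest and 12 lowest against clusters 0 and 1 with the same direction in both DN3 libraries, 6 and 6 against cluster 2, 5 and 5 for KI over WT, and per list the 4 members with most UMIs and the 2 farthest ratios. Genes outside this rule (Cd163l1, Ccr8, Elovl5, Fos, Ptprc, Cd96, Cd79a, Bax, Ighm, Trp53inp1 and others without an interval) were chosen after their values were seen. Some genes that the rule selects are not reported here. Comparisons within a stage and their scalings, the closest profile (pseudocount 0.5), the depth of receptor cells and the relation with transcript length were added after the data had been seen.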

Additional observations from a re-analysis of the deposited data

Results flagged for a closer look

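In 3 measures of cluster 8 the KI and WT libraries differed in opposite directions in DN3 and DN4, each on 1 library per group, and none of these differences was tested. The median share of ribosomal protein UMIs per cell was 1.08 percentage points higher in KI than in WT in DN3 (6.63% against 5.56%), and in DN4 the difference KI minus WT was -0.475 points (3.50% against 3.98%). The median depth differed by 237.5 UMIs per cell in DN3 (2206.5 in KI, 1969 in WT) and by -294 in DN4 (1187 in KI, 1481 in WT). The share of cells with a productive TRB contig differed by 1.08 points in DN3 (7.14% of KI cells, 6.06% of WT cells) and by -25.8 points in DN4 (6.25% of 16 KI cells, 32% of 25 WT cells). The DN3 shares are 1 of 14 and 2 of 33 cells, with intervals of 0.181% to 33.9% and 0.743% to 20.2%, so that direction lies within counting error. The DN4 intervals, 0.158% to 30.2% and 14.9% to 53.5%, overlap as well. Median mitochondrial and Malat1 shares were lower in KI than in WT in both stages. In the DN4 libraries all 3 cells with both a productive TRB and a productive TRA contig were WT.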

How the results depend on the processing

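Of the alternative values of main results, 39 stayed within 1.5 times the reported count or within its counting interval and 12 moved. Of those of single genes, lists and marker shares 159 stayed, 134 moved and 4 reversed. Genes 2-fold apart from clusters 0 and 1 numbered 2612, and 662 with at least 200 CPM in either pool, 5352 with no filter and, added after seeing the data, 1150 with at least 50 CPM in the comparison pool. Against cluster 2 the 2715 became 760, 5573 and 1221 under the same settings. Between KI and WT in DN3 the 979 became 340 at 200 CPM, 1915 at 50 CPM and 156 where the interval had to exclude equality, and 1280 with ribosomal protein and mitochondrially encoded genes left out of the totals. Fewer or more genes tested account by construction for the moves with the filter. The share of WT DN3 cells, 1.14%, was 0.562% among cells with at least 2000 UMIs and 0.386% among cells with at most 6% mitochondrial UMIs, and that of KI DN3, 0.425%, was 0.122% in the latter. The median of the γδ list against clusters 0 and 1, 1.71 on the log2 scale, reversed to -1.03 in WT DN3 alone, -1.01 under TMM scaling and -0.77 in DN3 cells of both libraries. That of the p53 list, 1.35, reversed to -0.034 under TMM. In WT DN3 alone and in DN3 cells the DN4 cells of cluster 8 are absent by construction, and the cause of the other reversals was not tested. Depth limits every value: 3 UMIs amount to 30.3 CPM in the DN3 cells and 53.3 CPM in the DN4 cells of the cluster. Weighting the DN3 libraries equally was not run against cluster 2, which has no WT DN3 cells. No paired analysis was possible because each group has 1 library.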

Other observations

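Genes of the GSK3 and β-catenin list were higher in cluster 8 in 2 of 4 tested members in DN3, Gsk3b and the corepressor gene Tle3 (log2 ratio 1.12), and in 1 of 3 in DN4, with medians of 1.0 and 0.29, or 0.19 and -0.67 under TMM scaling, where none of these members was 2-fold apart. Regulatory T cell genes gave 2 of 2 higher in DN3, Ctla4 at 1.24 and Ikzf2, and 1 higher and 2 lower of 4 in DN4. Apoptosis regulators of the BCL2 family gave 0 of 3 in either direction in DN3 and 1 of 2 higher in DN4, Bcl2 at 568 against 180 CPM. Over all genes tested 15.0% were higher and 23.4% lower in DN3, and 15.6% and 29.7% in DN4. With so few members, these list counts cannot be told apart from those shares.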
